A study of Mus musculus with 8 samples.

Results

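Collagen genes were taken as the mouse genes whose symbol is Col, a number, the letter a and a number, each of which encodes a chain of a collagen. Of the 45706 genes in the deposited tables, 44 carried such a symbol, and 40 of them had 10 or more estimated counts in at least 5 of the 8 samples and so belonged to the 17495 genes tested. The other 4 were Col4a4, Col6a5, Col10a1 and Col17a1, which reached 10 counts in 0, 3, 1 and 2 samples. Their counts lay between 0 and 17 in all samples. The members closest to this limit were Col2a1, Col6a6 and Col28a1, which reached it in 6 samples each and had 4, 4 and 6 counts in their lowest sample.

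The study asked which ribosome-associated mRNAs of PV+ interneurons, the fast-spiking parvalbumin cells of the cortex, change when these cells are activated in vivo. All 8 samples came from PvalbFlp/+;Neurod6Cre/+ mice between postnatal day 42 and 70. As pups, at postnatal day 1 in the sample records, the mice had received a flox-fdio AAV in the primary somatosensory cortex. In this vector the hSyn promoter drives HA-RPL10a, a tagged ribosomal protein, and, behind a self-cleaving peptide, myc-hM3Dq, an excitatory designer receptor. Flp from the Pvalb locus switches it on, and Cre from the Neurod6 locus switches it off in pyramidal cells. Mice of 1 group received CNO, the ligand of the receptor, at 1 mg/kg in 5 injections over about 48 h, and mice of the other received vehicle, with 4 samples in each group and 4 brains pooled in each sample. The vehicle samples therefore carried the same alleles, vector and receptor as the CNO samples.

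Each sample held between 44064161 and 49413273 estimated counts, so that 3 counts corresponded to 0.0607 to 0.0681 CPM (counts scaled to the library size). All 12 markers of PV interneurons were measured, but those of other cells were present as well. The summed level of 12 pyramidal cell markers was 678 to 926 TPM (counts scaled to transcript length and library) in CNO samples and 859 to 1063 TPM in vehicle samples. For 13 endothelial markers the sum was 112 to 287 TPM in CNO and 162 to 239 TPM in vehicle samples, for 10 mural cell markers 48.4 to 113 and 52.0 to 94.1 TPM, and for 8 markers of fibroblasts and meninges 27.1 to 60.1 and 31.2 to 44.9 TPM. The 12 PV interneuron markers summed to 2602 to 4074 TPM in CNO samples and 1246 to 3246 TPM in vehicle samples. For 7 oligodendrocyte markers the sums were 565 to 1024 and 780 to 1003 TPM, and for 8 astrocyte markers 226 to 348 and 277 to 410 TPM. For 7 markers of somatostatin and VIP interneurons they were 596 to 691 and 683 to 802 TPM. Sums for 7 microglia and 5 oligodendrocyte precursor markers lay between 44.9 and 92.6 TPM. The RNA came from ribosomes pulled down by their HA tag, and none of the 8 samples held RNA from before the pulldown. Fewer cells of a type, less RNA per cell and RNA carried over in the pulldown therefore cannot be told apart.

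Collagens are mostly extracellular proteins whose chains wind around each other into a helix, and the genes differ in what the assembled trimer does. Fibrillar collagens form the tough fibres of connective tissue, which in the brain lie mainly in the meninges and around larger vessels. Collagen IV forms the sheet of the basement membrane that surrounds every brain vessel. Several of the smaller classes are made by neurons, where transmembrane collagens and collagen XIX have been linked to the formation of synapses.

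Collagen mRNAs were scarce in these samples. The median of the members' mean levels was 1.16 TPM, compared with 13.4 TPM over all genes tested. Only 5 members had a mean above 10 TPM, 16 lay between 1 and 10 TPM, and 19 lay below 1 TPM. The 5 most abundant, Col19a1, Col26a1, Col4a1, Col4a2 and Col6a1, made up 52.8% of the summed collagen level. That sum was 137, 187, 157 and 118 TPM in CNO samples 1 to 4 and 176, 140, 156 and 172 TPM in vehicle samples 1 to 4. The groups overlapped, with means of 150 ± 29.4 TPM in CNO and 161 ± 16.6 TPM in vehicle samples (SD, n = 4 each).

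**Figure D1:**
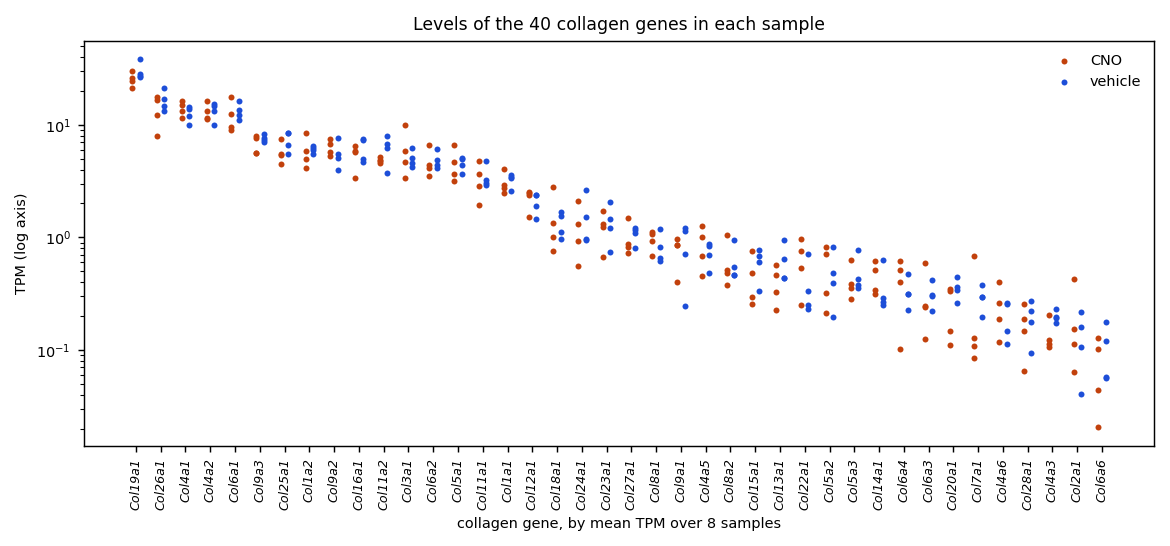
TPM (log axis) of each of the 40 collagen genes in the 4 CNO and 4 vehicle samples, with genes ordered by their mean over the 8 samples and each point standing for 1 sample. Col19a1 lies highest, between 21.1 and 38.3 TPM, and for every gene the points of the 2 groups overlap.

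None of the 40 collagen genes differed between CNO and vehicle samples at an adjusted p under 0.05 in edgeR's quasi-likelihood test, and none passed an unadjusted p under 0.05. Over all 17495 genes tested the same rules called 0% and 4.09% of genes, the latter made up of 1.44% higher and 2.65% lower in CNO samples. DESeq2's Wald test, edgeR's likelihood ratio test with robust dispersions and limma on log2 TPM also called 0 collagen genes at an adjusted p under 0.05. At an unadjusted p under 0.05 the likelihood ratio test counted 1 collagen gene, Col14a1, and the other tools 0. The smallest p was 0.0907, for Col4a1, and the adjusted p-values (Benjamini-Hochberg) ran from 0.817 to 0.997. The log2 fold changes of CNO over vehicle ran from -0.66 to 0.45, with 19 genes above 0, as were 50.4% of all genes, and 21 below. They had a median of -0.02, compared with 0.00 for all genes. In 0 of the 40 genes were the log2 CPM values of the groups apart, while this held for 2.42% of all genes.

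The precision of these estimates was lower for collagens than for the average gene. The median standard error of the log2 fold change was 0.27 over the collagens and 0.16 over all genes tested. It was 0.12 for Col19a1, the most abundant, and 0.54 for Col6a6, 1 of the rarest.

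**Figure D2:**
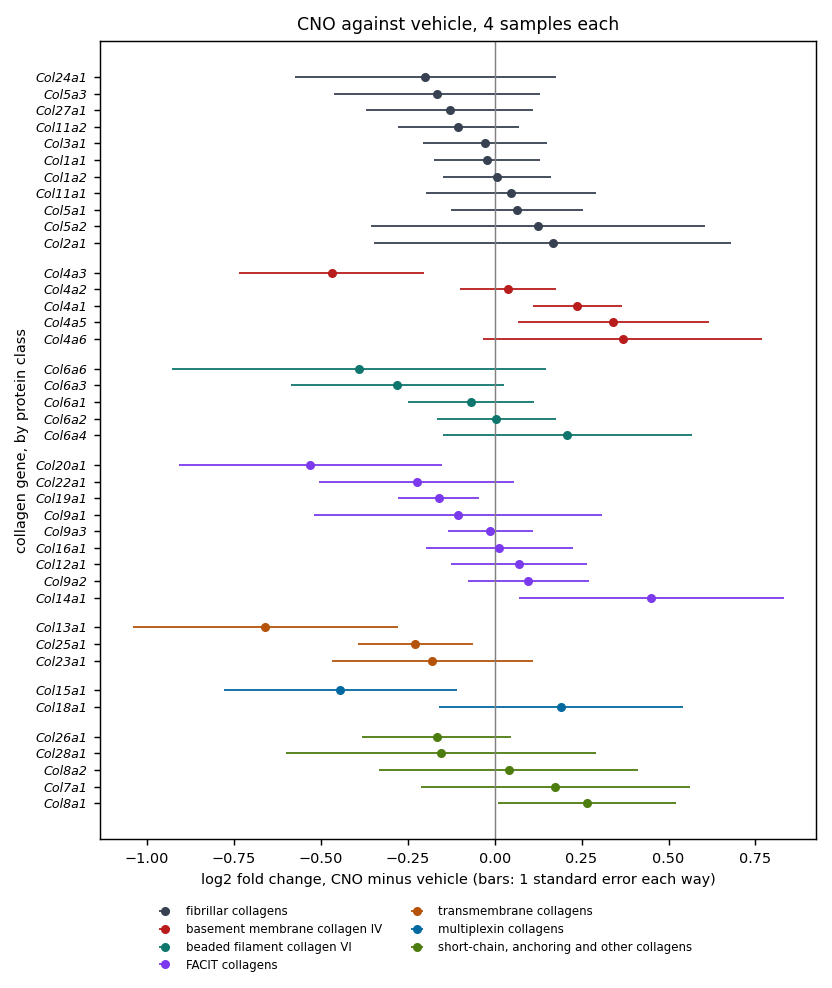
Log2 fold change of CNO over vehicle for each of the 40 collagen genes, with 1 standard error on either side and genes grouped and coloured by protein class. The estimates scatter on both sides of 0 in each class except the transmembrane collagens, whose 3 values lie between -0.66 and -0.18.

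Collagen IV, the network of the basement membrane, had 5 measured genes, of which 4 had a log2 fold change above 0 and none passed the test. Their median log2 fold change was 0.24. The summed collagen IV level was 24.0 to 34.2 TPM in CNO samples and 21.2 to 30.6 TPM in vehicle samples, which overlap.

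Col4a1 and Col4a2 encode the chains of the collagen IV trimer found in nearly all basement membranes. Col4a1 (chromosome 8, 11198423 to 11312826, minus strand, GRCm38) measured 11.4, 16.2, 15.1 and 13.3 TPM in CNO samples 1 to 4 and 14.4, 10.02, 11.9 and 13.9 TPM in vehicle samples 1 to 4. Its log2 fold change was 0.24 ± 0.13 (SE, edgeR quasi-likelihood test, adjusted p = 0.817), and 0.13 without vehicle sample 2. Col4a2 (chromosome 8, 11312805 to 11449287, plus strand) measured 11.5, 16.1, 13.3 and 11.2 TPM in CNO samples and 14.7, 10.02, 13.3 and 15.4 TPM in vehicle samples. CNO sample 2 was highest and vehicle sample 2 lowest for both genes. The log2 fold change of Col4a2 was 0.04 ± 0.14 (adjusted p = 0.946).

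These genes run away from each other from starts 21 bases apart in the GENCODE annotation, and overlap there. Their log2 CPM correlated across the 8 samples with r = 0.786, a value that also reflects whatever the samples share. The ratio of Col4a1 to Col4a2 TPM was 1.08 ± 0.0979 in CNO and 0.944 ± 0.0518 in vehicle samples (SD, n = 4 each). CNO samples ranged from 0.992 to 1.19 and vehicle samples from 0.896 to 0.9997, so that only CNO sample 1 lay below a vehicle sample, number 2 (two-sided exact permutation p = 0.0571, unadjusted, the lowest of 7 pairs of chains compared). The pairs were chosen after the levels had been seen.

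The remaining collagen IV chains were rare. Col4a3, a chain of the network known from kidney and inner ear, measured 0.113, 0.206, 0.123 and 0.107 TPM in CNO and 0.232, 0.191, 0.195 and 0.173 TPM in vehicle samples. CNO samples 1, 3 and 4 were below every vehicle sample, whereas CNO sample 2 was within their range. Its log2 fold change was -0.47 ± 0.27 (adjusted p = 0.817), resting on 21 to 37 counts per sample. Of its 31-base sequences 5.08% are shared with other genes, most of all with the overlapping antisense gene C430014B12Rik. Col4a5 and Col4a6, neighbours on the X chromosome, had log2 fold changes of 0.34 ± 0.27 and 0.37 ± 0.40, and the ratio of their TPM was 3.75 ± 1.17 in CNO and 3.99 ± 1.30 in vehicle samples.

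All 11 genes of the fibrillar class were measured, and their log2 fold changes were the most narrowly spread of any class with more than 3 genes, from -0.20 to 0.17. There were 5 above 0 and 6 below, with a median of -0.02. The class summed to 23.5 to 40.4 TPM in CNO and 25.7 to 37.9 TPM in vehicle samples.

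Col1a2, a chain of collagen I, the main fibre of skin and bone, measured 4.99, 8.44, 5.89 and 4.17 TPM in CNO and 6.26, 5.45, 6.49 and 5.99 TPM in vehicle samples. The CNO samples enclosed the whole range of the vehicle samples, and the log2 fold change was 0.01 ± 0.16 (adjusted p = 0.992). Its partner chain Col1a1 lay at a steady share of it, with a TPM ratio of Col1a1 to Col1a2 of 0.531 ± 0.0531 in CNO and 0.533 ± 0.0527 in vehicle samples. The log2 CPM of these chains had r = 0.836 over the 8 samples.

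Col3a1, which encodes the collagen of elastic tissues and vessel walls, measured 3.39, 5.83, 10.02 and 4.64 TPM in CNO and 4.23, 4.57, 5.07 and 6.24 TPM in vehicle samples. CNO sample 3 had the highest TPM, yet its estimated count of 657 was close to the 650 of CNO sample 2, since TPM divides by a transcript length estimated separately in each sample. The log2 fold change from counts was -0.03 ± 0.18 (adjusted p = 0.968). Col5a2, a chain of the collagen that starts fibres, measured 0.213, 0.815, 0.709 and 0.319 TPM in CNO and 0.195, 0.396, 0.828 and 0.486 TPM in vehicle samples. Its highest sample lay 4.26 times above its lowest, and its log2 fold change of 0.12 ± 0.48 (adjusted p = 0.949) had an error exceeded in the class only by that of Col2a1.

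Of collagen VI, which forms beaded filaments close to cells, 5 genes were measured, with a median log2 fold change of -0.07. Col6a1 measured 9.52, 17.7, 12.4 and 9.07 TPM in CNO and 13.5, 11.1, 12.3 and 16.1 TPM in vehicle samples. CNO sample 2 was highest and CNO samples 1 and 4 lowest, and the log2 fold change was -0.07 ± 0.18 (adjusted p = 0.922). Col6a2, its partner chain and neighbour on chromosome 10, had a log2 fold change of 0.00 ± 0.17, and Col6a1 exceeded it by 2.60 ± 0.326 times in CNO and 2.76 ± 0.430 times in vehicle samples by TPM.

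FACIT collagens, which sit on the surface of fibres and have interrupted helices, carried the largest share of collagen mRNA. Their 9 measured genes summed to 39.6 to 55.5 TPM in CNO and 50.3 to 58.7 TPM in vehicle samples. Most of it was Col19a1, a collagen made by subsets of cortical neurons and interneurons. Col19a1 (chromosome 1, 24261890 to 24587472, minus strand) measured 25.9, 30.1, 24.6 and 21.1 TPM in CNO and 38.3, 28.01, 26.7 and 27.03 TPM in vehicle samples. Vehicle sample 1 stood above the rest, and CNO sample 2 exceeded the other 3 vehicle samples. The log2 fold change was -0.16 ± 0.12 (adjusted p = 0.817), and -0.057 without vehicle sample 1.

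Col9a2 and Col9a3 encode chains of collagen IX, best known from cartilage. Col9a3 measured 5.63, 8.003, 7.57 and 5.64 TPM in CNO and 7.31, 7.004, 7.65 and 8.26 TPM in vehicle samples, and its log2 fold change of -0.01 ± 0.12 (adjusted p = 0.982) was among the most precise. It overlaps Tcfl5 on the other strand, and 5.35% of its 31-base sequences are shared with other genes, most of all with Tcfl5. Col9a2 measured 6.74, 5.68, 7.44 and 5.30 TPM in CNO and 3.94, 5.54, 7.58 and 5.03 TPM in vehicle samples. Its lowest value was in vehicle sample 1, and its log2 fold change was 0.10 ± 0.18 (adjusted p = 0.885). Col20a1 measured 0.111, 0.335, 0.347 and 0.148 TPM in CNO and 0.340, 0.259, 0.362 and 0.448 TPM in vehicle samples. CNO samples 1 and 4 lay below every other sample, with a log2 fold change of -0.53 ± 0.38 (adjusted p = 0.817) from 10 to 40 counts per sample, and -0.30 without CNO sample 1.

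Transmembrane collagens, which are anchored in the cell membrane and can be shed, had 3 measured genes, all with a log2 fold change below 0. Col25a1, made by neurons and needed by motor axons to reach muscle, measured 5.48, 5.39, 7.40 and 4.45 TPM in CNO and 8.38, 5.46, 6.66 and 8.46 TPM in vehicle samples. Vehicle samples 1 and 4 were above every CNO sample, and the log2 fold change was -0.23 ± 0.17 (adjusted p = 0.817). It was -0.37 without CNO sample 3, -0.36 without vehicle sample 2 and -0.14 without vehicle sample 4. Col13a1, a collagen of the neuromuscular junction, measured 0.468, 0.572, 0.225 and 0.326 TPM in CNO and 0.433, 0.438, 0.945 and 0.639 TPM in vehicle samples. Vehicle samples 3 and 4 were above every CNO sample. Its log2 fold change of -0.66 ± 0.38 (adjusted p = 0.817) was the largest of any collagen gene in either direction, at 11 to 56 counts per sample. It was -0.44 without CNO sample 3 and -0.36 without vehicle sample 3.

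The multiplexins Col15a1 and Col18a1, basement membrane collagens that release inhibitors of vessel growth, had log2 fold changes of -0.44 ± 0.34 and 0.19 ± 0.35. Of the 5 remaining genes, Col26a1 was by far the most abundant, at 16.7, 17.8, 12.2 and 7.91 TPM in CNO and 21.1, 16.9, 13.3 and 14.7 TPM in vehicle samples. CNO sample 4 was lowest and vehicle sample 1 highest, and the log2 fold change was -0.17 ± 0.21 (adjusted p = 0.842). Col8a1, a short-chain collagen of vessel walls, measured 0.684, 1.12, 1.06 and 0.931 TPM in CNO and 0.828, 0.652, 1.19 and 0.619 TPM in vehicle samples. Only vehicle sample 3 exceeded CNO sample 2, and the log2 fold change was 0.27 ± 0.26 (adjusted p = 0.818). It was 0.53 without vehicle sample 3, 0.16 without vehicle sample 2 and 0.15 without vehicle sample 4. Col28a1, a small relative of collagen VI found around peripheral glia, measured 0.0657, 0.190, 0.254 and 0.147 TPM in CNO and 0.220, 0.0932, 0.272 and 0.177 TPM in vehicle samples. It rested on 6 to 25 counts per sample, and its log2 fold change was -0.15 ± 0.45 (adjusted p = 0.930).

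CNO sample 2 held the highest log2 CPM for 14 of the 40 collagen genes, compared with 9.80% of all genes tested. CNO sample 4 held the lowest for 18 of the 40, compared with 22.8% of all genes. Without CNO sample 2, the number of collagen genes with a log2 fold change above 0 fell from 19 to 8, without vehicle sample 2 it was 12, and without CNO sample 4 it was 26. At an unadjusted p under 0.05, 1 collagen gene passed without CNO sample 1 (Col4a1), CNO sample 2 (Col4a3), CNO sample 3 (Col25a1), vehicle sample 2 (Col25a1), vehicle sample 3 (Col8a1) or vehicle sample 4 (Col14a1), and none passed adjustment in any of these fits. The same 6 fits passed between 2.84% of all genes, without CNO sample 1, and 9.62%, without CNO sample 2.

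Because the samples held RNA of several cell types, each collagen was compared across the 8 samples with Pvalb, the calcium-binding protein that defines the targeted interneurons, and with Cldn5, a tight junction protein of brain endothelium. Pvalb measured 1022, 820, 977 and 1160 TPM in CNO samples 1 to 4 and 300.1, 988, 1050 and 943 TPM in vehicle samples 1 to 4, so that vehicle sample 1 stood far below the rest. Cldn5 measured 12.7, 28.98, 34.6 and 22.4 TPM in CNO and 18.8, 17.8, 25.8 and 22.5 TPM in vehicle samples, and was lowest in CNO sample 1. Neither differed between the groups, with log2 fold changes of 0.34 ± 0.33 (adjusted p = 0.820) for Pvalb and 0.28 ± 0.26 (adjusted p = 0.817) for Cldn5. Their log2 CPM had r = 0.257 with each other (exact permutation p = 0.525) and Spearman's rho of 0.143 (exact permutation p = 0.752). Without the 2 samples farthest from the median of Pvalb, vehicle 1 and CNO 2, r was 0.0810.

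A gene was said to follow 1 of the 2 markers where its Pearson r of log2 CPM with it was 0.7 or more and its r with the other was below 0.7. By this rule 6 of the 40 collagen genes followed Cldn5, as did 2.74% of all genes, and 1 followed Pvalb, as did 24.0% of all genes. None followed both, as did 0.0572% of all genes, and 33 followed neither, as did 73.2%. The median r of the collagens was 0.438 with Cldn5 and -0.147 with Pvalb, compared with 0.0197 and -0.0167 for all genes. In 35 of the 40 collagens r was higher with Cldn5 than with Pvalb, compared with 48.9% of all genes. The samples behind these values are the same 8 for every gene, so the genes are not independent.

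**Figure D3:**
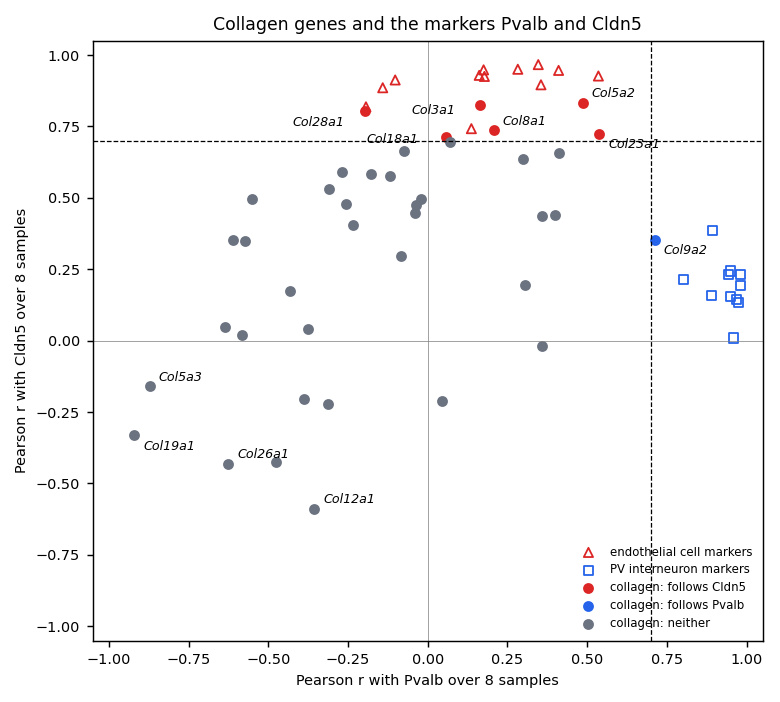
Pearson r with Pvalb (horizontal axis) and with Cldn5 (vertical axis) over the 8 samples for the 40 collagen genes (filled circles), the other endothelial markers (triangles) and the other PV interneuron markers (squares), with dashed lines at 0.7. The 6 collagens that followed Cldn5 lie with the triangles above the upper line, Col9a2 is the only collagen, beside the squares, to the right of the vertical line, and Col19a1 and Col5a3 lie at the far left.

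The 6 genes that followed Cldn5 came from 4 protein classes: the fibrillar Col5a2 and Col3a1, the short-chain Col8a1 with Col28a1, the transmembrane Col23a1 and the multiplexin Col18a1. Col5a2 had r = 0.832 with Cldn5 (exact permutation p = 0.0112, adjusted over all genes p = 0.862) and rho of 0.810 (exact permutation p = 0.0218, adjusted p = 1), and r was 0.819 without CNO samples 1 and 3, the farthest from the median of Cldn5. For Col3a1, r was 0.826 (exact permutation p = 0.0122, adjusted p = 0.887), rho was 0.810 (exact permutation p = 0.0218, adjusted p = 1) and r without these samples was 0.598. In log2 CPM both were low in CNO samples 1 and 4 and vehicle sample 1 and high in CNO samples 2 and 3 and vehicle sample 3. Col5a2 and Col3a1 were the only members in this class under all 15 alternative settings, and both lie on chromosome 1, at 45374321 to 45503282 and 45311538 to 45349706.

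The other 4 were less stable. Col28a1 had r = 0.803 (exact permutation p = 0.0168, adjusted p = 0.979) and rho of 0.643 (exact permutation p = 0.0962, adjusted p = 1), with r = 0.513 without the 2 farthest samples. Col8a1 had r = 0.736 (exact permutation p = 0.0412, adjusted p = 0.999) and rho of 0.714 (exact permutation p = 0.0576, adjusted p = 1), with r = 0.771 without them. Col23a1 and Col18a1 had r = 0.724 and 0.712 (exact permutation p = 0.0430 and 0.0465, both adjusted p = 0.999), rho of 0.524 and 0.738 (exact permutation p = 0.197 and 0.0458, both adjusted p = 1), and r = 0.508 and 0.811 without the 2 farthest samples. None of the 6 thus passed adjustment over all genes, and for Col3a1, Col28a1 and Col23a1 a value above 0.7 rested on CNO samples 1 and 3. Col24a1 missed the limit with r = 0.697, and Col4a1 with r = 0.663.

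**Figure D4:**
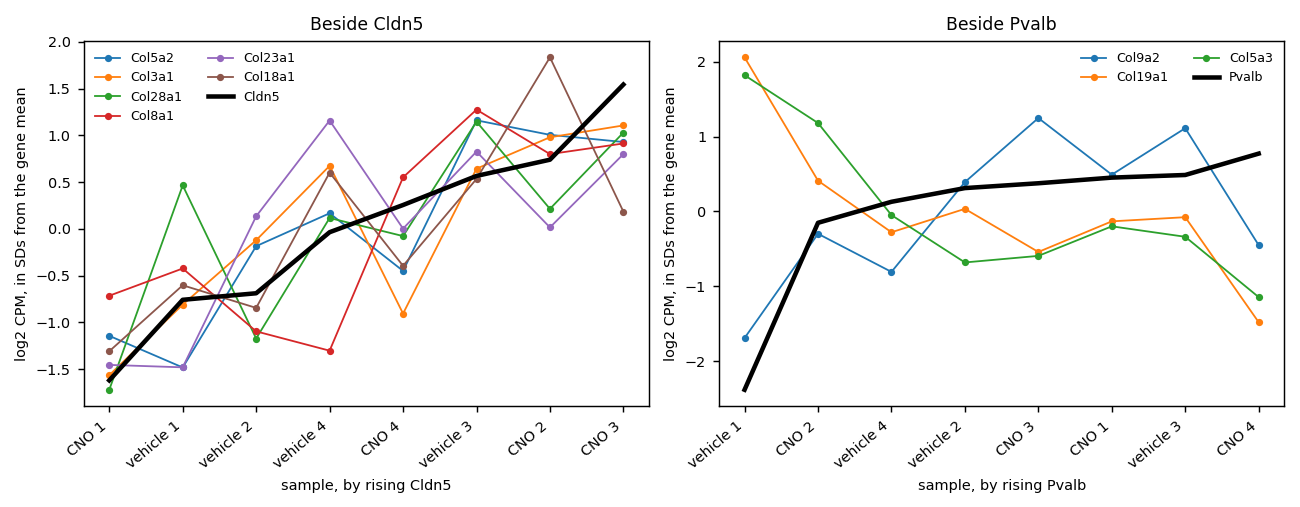
Log2 CPM of each gene, in standard deviations from its mean over the 8 samples, with samples ordered by rising Cldn5 (left) or rising Pvalb (right) and the marker drawn in black. The 6 collagens on the left climb unevenly with Cldn5 from CNO 1, and on the right Col19a1 and Col5a3 are highest and Col9a2 lowest in vehicle 1, where Pvalb is lowest.

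Markers of vascular and other cells were compared with Cldn5, not with the collagens. The same r with Cldn5 had picked these collagens, so it gives no separate link between them and the markers. The part of vascular cells in the result was not tested. All 13 endothelial markers, Cldn5 included, had r of 0.7 or more with Cldn5, as did 5 of 10 mural markers and 2 of 8 markers of fibroblasts and meninges, 2 of 8 astrocyte markers and 1 of 5 markers of oligodendrocyte precursors, whereas 0 of 12 PV interneuron markers did. All markers of these lists were measured. The same held for 7 of 12 genes for partners of collagen IV in the basement membrane, whose median r with Cldn5 was 0.735. Of all genes, 2.74% followed Cldn5 and 0.0572% followed both Cldn5 and Pvalb. Collagen IV itself had a median r of 0.575 and no gene at the limit.

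Col9a2 was the 1 collagen that followed Pvalb, with r = 0.712 (exact permutation p = 0.0360, adjusted p = 0.106) and rho of 0.524 (exact permutation p = 0.197, adjusted p = 0.356). It rested on vehicle sample 1, in which both genes were lowest: without that sample r was 0.273, and without vehicle sample 1 and CNO sample 2 it was 0.0757. All 12 PV interneuron markers, Pvalb included, had r of 0.7 or more with Pvalb, with a median of 0.955. Of all genes, 24.0% followed Pvalb. Without vehicle sample 1 and CNO sample 2, some of these markers also fell below 0.7, the lowest to 0.519.

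Col19a1, the most abundant member, ran opposite to Pvalb. Its r was -0.920 (exact permutation p = 0.00223, adjusted over all genes p = 0.0156), its rho -0.714 (exact permutation p = 0.0576, adjusted p = 0.171), and its r without vehicle sample 1 and CNO sample 2 was -0.714. Col5a3, a fibrillar chain with 40 to 87 counts per sample, had r = -0.872 (exact permutation p = 0.00102, adjusted p = 0.0101), rho of -0.786 (exact permutation p = 0.0279, adjusted p = 0.113) and r = -0.747 without them. Both were highest in vehicle sample 1 and lowest in CNO sample 4, the samples with the lowest and highest Pvalb. They were the only 2 collagens at or below -0.7, where 12.1% of all genes lay, and both stayed there under all 15 alternatives. This count was chosen after the values had been seen.

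The values of the rest of the family with Pvalb changed when vehicle sample 1 was left out. Then 9 collagens had r at or below -0.7 with Pvalb, compared with 10.7% of all genes, and the median r of the 40 was -0.601, compared with -0.0209 for all genes. Over all 8 samples, vehicle sample 1 included, the lists of other cells lay on both sides. The median r with Pvalb was -0.673 for pyramidal cells, -0.696 for astrocytes, -0.579 for oligodendrocytes, -0.668 for their precursors and -0.605 for microglia. It was 0.178 for endothelial cells, 0.203 for mural cells, 0.243 for fibroblasts and meninges, and 0.0899 for somatostatin and VIP interneurons. The part of these cells in the values for collagens was not tested.

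For 31 of the 40 members, RefSeq start sites on GRCm38.p6 gave 34 windows of 250 bases before the start. The motif GGGCGG, a GC box, was found on either strand in 61.8% of these windows and in 32.7% of 32851 such windows. The 32851 windows came from all genes that had one, whether tested here or not, whereas the 34 came from tested collagens only. The TATA motif TATAAA was found in 8.82% and 12.4%, CCAAT in 35.3% and 33.8%, the AP-1 motif TGACTCA in 2.94% and 4.46%, and the CRE motif TGACGTCA, bound by activity-regulated CREB, in 0% and 1.55%. None of these motifs contains another. Of the 34 windows, 12 overlapped exons that GENCODE annotates for the same gene, and the TGACTCA match, in Col6a1, lay in such an exon. In the 22 windows that did not overlap, GGGCGG was found in 59.1%. The windows of 4 members are printed 5′ to 3′ on the strand of the gene, with motif letters on either strand in capitals, to show genes whose windows overlapped no such exon and that ran with Cldn5 (Col3a1, Col8a1 and Col28a1) and against Pvalb (Col5a3). In the order of the lines, they lie at chr1:45311288-45311537 (plus strand), chr16:57754738-57754987 (minus), chr6:8192618-8192867 (minus) and chr9:20815068-20815317 (minus).
Col3a1: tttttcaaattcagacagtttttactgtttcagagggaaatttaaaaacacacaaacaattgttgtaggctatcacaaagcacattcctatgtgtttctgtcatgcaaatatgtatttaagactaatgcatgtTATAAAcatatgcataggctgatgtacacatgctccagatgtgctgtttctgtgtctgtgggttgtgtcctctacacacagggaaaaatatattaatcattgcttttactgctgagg
Col8a1: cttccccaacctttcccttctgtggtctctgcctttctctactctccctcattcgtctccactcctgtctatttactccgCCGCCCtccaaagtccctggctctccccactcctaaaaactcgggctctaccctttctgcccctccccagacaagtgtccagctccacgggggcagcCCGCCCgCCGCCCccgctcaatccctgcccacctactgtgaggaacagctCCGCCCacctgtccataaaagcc
Col28a1: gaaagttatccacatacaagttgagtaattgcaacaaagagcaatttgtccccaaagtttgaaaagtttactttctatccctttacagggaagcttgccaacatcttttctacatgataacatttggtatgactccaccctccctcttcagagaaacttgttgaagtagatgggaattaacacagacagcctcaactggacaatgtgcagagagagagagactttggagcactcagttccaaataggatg
Col5a3: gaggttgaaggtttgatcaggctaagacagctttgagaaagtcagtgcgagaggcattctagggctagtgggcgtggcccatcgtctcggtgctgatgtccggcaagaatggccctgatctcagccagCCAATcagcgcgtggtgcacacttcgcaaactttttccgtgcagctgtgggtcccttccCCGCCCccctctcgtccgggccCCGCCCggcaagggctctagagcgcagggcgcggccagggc

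Of the 6 followers of Cldn5, 5 had a window, and 3 of these (Col8a1, Col18a1 and Col23a1) held a GC box. Col3a1 had TATAAA 117 bases before its start and no GC box, Col8a1 had 4 GC boxes, the nearest 23 bases before its start, and the Col28a1 window held none of the 5 motifs. Col5a3 had CCAAT 122 bases and GC boxes 63 and 41 bases before its start. A match gives letters only, not binding.

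Genes that make, process and bind collagen were followed with the members. Of 18 genes for hydroxylases, chaperones and folding, 0 passed an unadjusted p under 0.05, with a median log2 fold change of -0.04. The most abundant was Ppib, a folding enzyme of the endoplasmic reticulum, at 104 ± 8.82 TPM in CNO and 103 ± 6.54 TPM in vehicle samples, followed by Mia3, which loads collagen into vesicles, at 66.3 ± 5.70 and 62.3 ± 3.28 TPM, and P4hb, a subunit of prolyl hydroxylase, at 35.2 ± 2.69 and 34.4 ± 5.57 TPM. Serpinh1, the chaperone specific to collagen, had r = 0.941 with Cldn5 (exact permutation test, adjusted p = 0.209). Of the 18 genes, 2 had r of 0.7 or more with Cldn5, while 2.74% of all genes followed Cldn5 and 0.0572% followed both markers. Colgalt1 and Colgalt2, which add sugars to collagen, both had r of -0.93 with Pvalb, where 12.1% of all genes lay at or below -0.7. P4hb had r = 0.915 with Pvalb, which 24.0% of all genes followed. Without vehicle sample 1 and CNO sample 2 the r of P4hb was 0.598.

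Of 14 genes for processing and crosslinking, 1 passed an unadjusted p under 0.05 and 0 passed adjustment. Over the 54 genes of the collagen pathway lists this was also the only gene, or 1.85%, compared with 4.09% of all genes. It was Adamts2, the protease that trims fibrillar procollagens, at 2.39, 2.38, 2.06 and 1.98 TPM in CNO and 3.07, 2.85, 2.36 and 2.67 TPM in vehicle samples. Its log2 CPM was lower in every CNO sample than in any vehicle sample, with 2.42% of all genes also not overlapping, whereas the TPM of CNO samples 1 and 2 lay just above that of vehicle sample 3. The log2 fold change was -0.29 ± 0.13 (edgeR quasi-likelihood test, unadjusted p = 0.0422, adjusted p = 0.817). Sparc, which binds collagen outside the cell, led the list at 41.2 ± 15.1 TPM in CNO and 39.4 ± 4.80 TPM in vehicle samples, ahead of Bmp1 and Furin, and had r = 0.956 with Cldn5.

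None of 10 collagen receptors and none of 12 basement membrane partners of collagen IV passed an unadjusted p under 0.05. Their median log2 fold changes were -0.02 and 0.06. The most abundant receptors were Itgb1, Ddr1 and Adgrg1, at 21.3 ± 3.23, 20.7 ± 2.60 and 9.27 ± 1.71 TPM in CNO and 22.2 ± 1.99, 22.5 ± 1.73 and 10.2 ± 1.46 TPM in vehicle samples. Among the partners, Lama4, a laminin chain, stood far above the rest at 305 ± 58.9 TPM in CNO and 294 ± 57.4 TPM in vehicle samples, followed by Agrn and Lamb2.

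In the lists of cell type markers, 0 of 89 genes passed adjustment and 4 (4.49%, compared with 4.09% of all genes) had an unadjusted p under 0.05 in edgeR's quasi-likelihood test: Gad2, with a log2 fold change of 0.52 ± 0.21, and Lamp5, Vcan and P2ry12, with -0.37 ± 0.13, -0.58 ± 0.23 and -0.38 ± 0.17. The endothelial list had a median log2 fold change of 0.28, with 12 of 13 genes above 0, compared with 50.4% of all genes. The mural and fibroblast lists had medians of 0.21 and 0.12, with 7 of 10 and 7 of 8 above 0. Most other lists also lay mainly on 1 side. The PV interneuron list had a median of 0.40, with 12 of 12 above 0. All 12 had r of 0.7 or more with Pvalb, Pvalb included, so they are not independent. The log2 CPM of Pvalb was 6.64 in vehicle sample 1, beside 8.36 to 8.61 in the other vehicle samples. Medians were -0.23 for oligodendrocytes (7 of 7 below 0), -0.17 for astrocytes (7 of 8) and -0.24 for microglia (7 of 7). They were -0.12 for pyramidal cells (11 of 12 below 0), -0.22 for oligodendrocyte precursors (5 of 5) and -0.18 for somatostatin and VIP interneurons (4 of 7). Beside these, the collagen IV median was 0.24, and the part of vascular RNA in it was not tested.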

How the data were processed

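Ribosome-associated mRNA was sequenced in 4 CNO and 4 vehicle samples, each pooled from 4 brains. The authors used Trim Galore for trimming, STAR for alignment against GRCm38, then Salmon and tximport for gene-level values (versions not given in the sources used here). The authors deposited estimated counts per gene, neither normalized nor filtered, and TPM, which divide by transcript length, together with gene names. The floor of 3 counts covers counting error only. Alternatives included the replicate numbers as a block and each sample left out.

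Counts were rounded and tested in R 4.3.3 with edgeR 4.0.16 (quasi-likelihood, TMM, 10 or more counts in at least 5 samples, Benjamini-Hochberg over 17495 genes, called at 0.05), with DESeq2 1.42.0 and limma 3.58.1 (log2 of TPM plus 1 or 0.1) as alternatives. Standard errors were the log2 fold change over the root of F. Log2 CPM used a prior count of 2. Correlations were tested over all 40320 orders of the samples and single values over the 70 assignments of 4 against 4. Positions came from GENCODE and windows from RefSeq, both on GRCm38. On simulated data for this comparison with 17495 genes the quasi-likelihood test recovered 74 of 100 genes changed by 1 on the log2 scale and 93 of 100 changed by 2, with 7 false calls. The changed genes were drawn at random from all genes tested, so these shares do not measure recovery for the collagens. The median standard error was 0.27 over the collagens and 0.16 over all genes tested. Plots used Python 3.11.15 and matplotlib 3.10.9.

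The members and lists were chosen with earlier results of these data known. Values in every sample were given for the 8 collagens with the highest mean TPM, the 5 with the smallest p, those whose groups did not overlap, up to 4 that most followed Pvalb or Cldn5, and Pvalb and Cldn5. Of the other lists, genes with an unadjusted p under 0.05 and the 3 most abundant could be named. Col23a1, Col18a1, Col5a3, Col24a1, Serpinh1, Colgalt1 and Colgalt2 were named after their values had been seen.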

Additional observations from a re-analysis of the deposited data

Results flagged for a closer look

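Of 84 groups of 4 samples examined for a single distant sample in Pvalb, Cldn5 and the 40 collagens, 2 stood out, compared with about 4.2 by chance, since the rule marks about 1 group in 20. Vehicle sample 1 had the highest log2 CPM of Col19a1 among vehicle samples, 6.08 beside 5.66 to 5.72, a gap of 0.866 of the whole range. The same sample had the lowest log2 CPM of Pvalb, 6.64 beside 8.36 to 8.61, a gap of 0.875 of the range.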

How the results depend on the processing

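No collagen gene passed an adjusted p under 0.05 in the edgeR fits with other size factors, without a filter, with robust dispersions, with the replicate block or without any 1 sample, nor in DESeq2 or limma, and the smallest adjusted p was 0.472, without CNO sample 2. At an unadjusted p under 0.05 the likelihood ratio test counted 1 collagen gene, and leaving out 1 sample gave 0 to 1. Leaving out 1 sample gave 8 to 26 collagen genes with a log2 fold change above 0. Among all genes, adjusted p under 0.05 was reached by 0 as reported, 4 without a filter, 15 with robust dispersions, 11 in DESeq2, 3 with a term for replicates 1 and 2 against 3 and 4 and 2 without CNO sample 1. The log2 fold change of Col1a2 turned to -0.038 by library size, -0.042 with robust dispersions, -0.071 and -0.087 in limma with pseudocounts of 1 and 0.1, and -0.017 with the replicate block; that of Col3a1 to 0.14 and 0.15 in limma; and that of Col4a2 to -0.0070 by library size and -0.031 and -0.033 in limma. Leaving out 1 sample turned the sign of Col1a2 (-0.14 to 0.10), Col26a1 (-0.30 to 0.00042), Col28a1 (-0.46 to 0.10), Col3a1 (-0.14 to 0.093), Col4a2 (-0.082 to 0.13), Col5a2 (-0.14 to 0.56), Col6a1 (-0.26 to 0.040), Col9a2 (-0.0030 to 0.20) and Col9a3 (-0.064 to 0.037). Collagens following Pvalb numbered 0 by Spearman's rho, TPM, library size, deviations from group means or marker means, and 0 to 2 without 1 sample (0 without vehicle sample 1). Those following Cldn5 numbered 13 at a limit of 0.5 and 5 to 12 without 1 sample (12 without CNO sample 4). The cause was not tested. Same-numbered samples had correlations of deviations from group means of 0.03, -0.03, 0.16 and 0.24, so that the numbers were not taken as pairs, and with the replicate block 0 collagens passed an unadjusted p under 0.05 and 765 of all genes did, compared with 716. The depth limit was not tested gene by gene.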
